A study of Homo sapiens with 12 samples.

Results

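The mitochondrial protein import machinery was examined in PC3 and DU145 cells, human prostate cancer lines grown from bone and brain metastases, after treatment with pentamidine. Its members were taken by gene name: the TOMM, TIMM, GRPEL, MTX, PMPC and IMMP families together with SAMM50, PAM16, DNAJC19, CHCHD4, GFER and IMMT. Of 32077 genes in the count table, 39 matched, and 38 of them had at least 10 counts in at least 3 samples. TOMM20L, a relative of the receptor TOMM20, had 1 to 8 counts per sample and was not kept. The rule uses names and a minimum count, and no measured difference between groups.

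Nearly all mitochondrial proteins are encoded in the nucleus, made in the cytosol and carried through the mitochondrial membranes by dedicated complexes. The TOM complex is the entry gate of the outer membrane, and the SAM complex inserts barrel proteins there. Behind the gate, the small TIM chaperones escort membrane proteins across the space between the membranes, the MIA relay oxidises proteins that stay in it, TIM22 inserts carriers, and TIM23 passes proteins with a cleavable presequence to the matrix. A motor of mitochondrial HSP70 and its partners (PAM) pulls them in, driven by ATP, and peptidases remove the presequence. Entry through TIM23 depends on the membrane potential.

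Messenger RNA was sequenced in 12 samples: PC3 cells with vehicle, PC3 cells with pentamidine, DU145 cells with vehicle and DU145 cells with pentamidine, 3 samples each. Pentamidine, an antiprotozoal diamidine that binds DNA at AT-rich sites, was given at 2.5 μmol/L for 48 hours, and the cells carried no introduced allele. Each sample held between 13514195 and 15131436 counts. The sources do not say whether the 3 samples of a group were separate cultures, so p-values measure the spread between these samples, which may be technical. In bulk libraries, a change in a transcript and a change in the total RNA per cell cannot be told apart.

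Levels are given as CPM, counts scaled to a common library size after TMM normalization over the 12 samples. A member was called higher or lower when the adjusted p of edgeR's quasi-likelihood test, corrected over all genes tested, was below 0.05. Fold changes are log2, pentamidine minus vehicle. Their standard error (SE) was derived from the test, as the absolute log2 fold change divided by the square root of its F statistic.

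Several values of the whole series bear on what follows. The 13 mitochondria-encoded mRNAs made up 3.35% to 4.04% of counts in the vehicle samples and 0.205% to 0.257% after pentamidine. Markers fixed for the lines only partly matched their labels. CTNNA1, a gene with a known deletion in PC3, stood at 430.5 to 576.5 CPM in the samples labelled PC3, against 395.1 to 425.5 CPM in those labelled DU145. EPCAM, an epithelial surface marker, had 0 to 2 counts in every sample, and KRT8 stood at 16.1 to 21.4 CPM in PC3 against 1814 to 2791 CPM in DU145. KRT18, also epithelial, was present in both lines, at 143.9 to 208.1 CPM in PC3 and 684.4 to 939.5 CPM in DU145. A count per gene cannot show a deletion of some exons. The study's methods state that the lines had been authenticated by STR profiling, and their identity was not tested further here. KLK3 had at most 2 counts, and PTPRC and PECAM1, markers of blood and vessel cells, had at most 10 counts in any sample. COL1A1 did not pass 2.98 CPM.

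The first PC3 vehicle sample stood apart by a chi-square measure. The mean chi-square per gene between it and the other PC3 vehicle samples was 5.98 and 7.3, against 1.72 to 3.64 for the other pairs within a group. Another measure set it less apart. Its median absolute log2 gap to the other samples of its group was 0.111 over all genes, against 0.106 for the third PC3 vehicle sample. Calls in PC3 that depend on the first vehicle sample are named beside the member.

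In PC3 cells, 10 members were higher and 11 lower after pentamidine, against 21.7% of the 13861 genes tested higher and 21.7% lower. In DU145 cells, 7 were higher and 9 lower, against 17.2% and 16.8% of 14313 genes. Scaled by library size alone, the DU145 split was 9 higher and 6 lower, with 3278 and 1646 over all genes in place of 2459 and 2401. As shares of the 38 members these are 26.3% and 28.9% in PC3 and 18.4% and 23.7% in DU145, near the background of all genes in both lines. The median log2 fold change over the members was -0.059 in PC3 and -0.0077 in DU145. Over all genes tested it was 0.0046 and 0.0085. The groups did not overlap for 21 members in PC3, where 52.1% of all genes did not overlap, and for 19 in DU145, where the share of all genes was 44%. An absolute log2 fold change above 1 was reached by 1 member in PC3, GRPEL2, against 4.75% of all genes, and by 0 in DU145, against 2.03%. The summed level of the members was 2309 to 2466 CPM in PC3 vehicle samples and 2356 to 2450 CPM after pentamidine, and 2586 to 2654 CPM and 2558 to 2644 CPM in DU145, so the groups overlapped in both lines.

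Between the lines, 5 members were called higher in both (GRPEL2, TIMM44, MTX2, DNAJC19 and TOMM34), 7 lower in both (TOMM40L, TIMM8A, TIMM17A, TOMM40, GRPEL1, PMPCA and TOMM70) and 0 in opposite directions. Of the 13125 genes tested in both lines, 9.94% were higher in both, 9.62% lower in both and 42.4% called in neither. A further 9 were called in PC3 alone, 4 in DU145 alone and 13 in neither. A call in one line alone does not show a difference between the lines, and that difference has its own test further on.

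**Figure D1:**
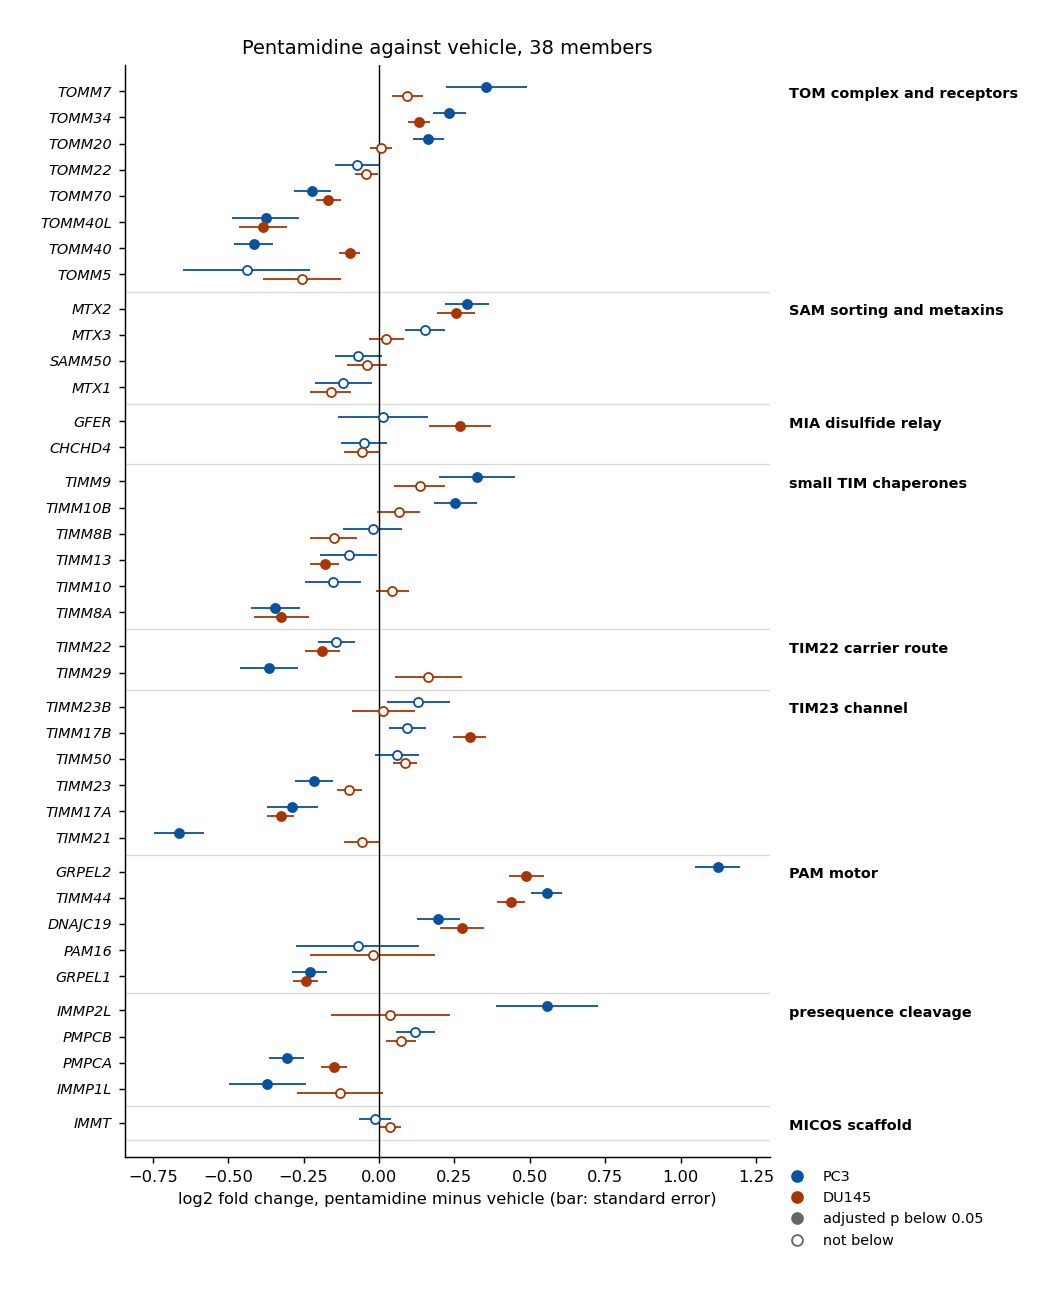
Log2 fold change of each of the 38 members, pentamidine minus vehicle, in PC3 (blue) and DU145 (brown), grouped by role. Bars give the standard error derived from the test, with 3 samples per group. Filled points have an adjusted p below 0.05. GRPEL2 lies farthest to the right in both lines, at 1.12 and 0.49, and TIMM21 farthest to the left in PC3, at -0.66.

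The largest mean rises over both lines were those of GRPEL2 and TIMM44 (mean log2 0.81 and 0.50), which belong to the import motor. Of its 5 members, GRPEL2, TIMM44 and DNAJC19 rose in both lines, GRPEL1 fell in both, and PAM16 was called in neither. Over all genes tested in both lines, 9.94% were higher in both and 9.62% lower in both. With only 5 members, the counts are not shown to be particular to the motor. GRPEL2 and GRPEL1 are nucleotide exchange factors of mitochondrial HSP70, which release ADP so that the chaperone can bind again. TIMM44 tethers HSP70 to the TIM23 channel. DNAJC19 is the J-protein thought to stimulate HSP70 there, and PAM16 is its inhibitory partner.

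The sequences before the RefSeq starts of GRPEL2 and TIMM44 are shown because these genes rose most over both lines, and that of TOMM40L because it fell most. Each run is 250 bases, 5′ to 3′ on the gene's strand (RefSeq, GRCh38.p14). The RefSeq starts differ from the starts of the Ensembl gene intervals given with the members. By those intervals, the TIMM44 run lies inside its gene, and the runs of GRPEL2 and TOMM40L reach into theirs. Capitals mark matches to motifs listed further on: CCGGAAGT, read by ETS factors such as GABP, in GRPEL2 and AAGATGGC, the YY1 motif, in TOMM40L. TIMM44 held no match.
GRPEL2, chr5:149345249-149345498, strand +: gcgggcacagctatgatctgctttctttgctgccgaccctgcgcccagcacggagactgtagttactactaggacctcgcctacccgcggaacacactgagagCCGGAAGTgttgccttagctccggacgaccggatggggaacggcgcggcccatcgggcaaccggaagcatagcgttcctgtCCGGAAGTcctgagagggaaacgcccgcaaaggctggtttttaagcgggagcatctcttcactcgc
TIMM44, chr19:7943667-7943916, strand -: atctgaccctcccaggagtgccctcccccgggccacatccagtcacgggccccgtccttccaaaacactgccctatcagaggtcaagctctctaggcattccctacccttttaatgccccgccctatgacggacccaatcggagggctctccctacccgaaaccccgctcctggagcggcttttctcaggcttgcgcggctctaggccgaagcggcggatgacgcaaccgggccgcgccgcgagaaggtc
TOMM40L, chr1:161225810-161226059, strand +: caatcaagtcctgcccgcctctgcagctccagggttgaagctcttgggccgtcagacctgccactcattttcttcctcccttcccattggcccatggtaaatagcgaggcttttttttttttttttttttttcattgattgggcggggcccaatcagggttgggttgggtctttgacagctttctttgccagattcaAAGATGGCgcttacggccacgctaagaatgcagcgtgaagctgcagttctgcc

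GRPEL2 (ENSG00000164284, chromosome 5, 149345430 to 149354583, plus strand, GRCh38) stood at 35.8, 34.7 and 29.9 CPM in the PC3 vehicle samples and at 70.5, 70.2 and 77.5 CPM after pentamidine. In DU145 the values were 38.6, 43.6 and 41.4 CPM with vehicle and 58.3, 56.8 and 58 CPM with pentamidine. Every treated sample lay above every vehicle sample of its line. The log2 fold change was 1.12 in PC3 (SE 0.0745, edgeR adjusted p = 2.2e-09), a 2.18-fold rise, and 0.49 in DU145 (SE 0.058, adjusted p = 1.1e-09), a 1.40-fold rise.

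GRPEL1 (ENSG00000109519, chromosome 4, 7058906 to 7068197, minus strand) moved the other way. It was at 117, 117 and 113 CPM in PC3 vehicle samples and at 91, 103 and 101 CPM after pentamidine. In DU145 the values were 115, 113 and 112 CPM against 96.1, 95.2 and 95.2 CPM. The groups were separate in both lines, with log2 fold changes of -0.23 (SE 0.058, edgeR adjusted p = 0.004) and -0.24 (SE 0.0417, adjusted p = 5.3e-06).

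TIMM44 (ENSG00000104980, chromosome 19, 7926718 to 7943920, minus strand) stood at 110, 112 and 110 CPM with vehicle and 160, 167 and 159 CPM with pentamidine in PC3. The DU145 values were 84.8, 82.9 and 75.6 CPM and then 115, 106 and 107 CPM. No vehicle sample reached a treated one, and the rise was 1.47-fold in PC3 (log2 0.56, SE 0.0509, edgeR adjusted p = 1.4e-07) and 1.35-fold in DU145 (log2 0.44, SE 0.0465, adjusted p = 4.3e-11).

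DNAJC19 rose less. It went from 37.8, 38.2 and 39.2 CPM to 42, 46.8 and 42.8 CPM in PC3 (log2 0.20, SE 0.0703, edgeR adjusted p = 0.032) and from 26.7, 30 and 25.4 CPM to 34.1, 33.6 and 31.5 CPM in DU145 (log2 0.28, SE 0.0735, adjusted p = 0.0024). The samples of each line did not overlap. Without the first PC3 vehicle sample, its log2 fold change in PC3 was 0.18 and the call was lost (adjusted p = 0.059), as it was without the second vehicle sample (0.077) or the second pentamidine sample (0.17). PAM16, at 2.63 to 4.99 CPM, had log2 fold changes of -0.071 in PC3 and -0.022 in DU145, with SEs of 0.205 and 0.208. Since 21.9% of its exon bases are shared with the readthrough gene CORO7-PAM16, its count is uncertain.

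**Figure D2:**
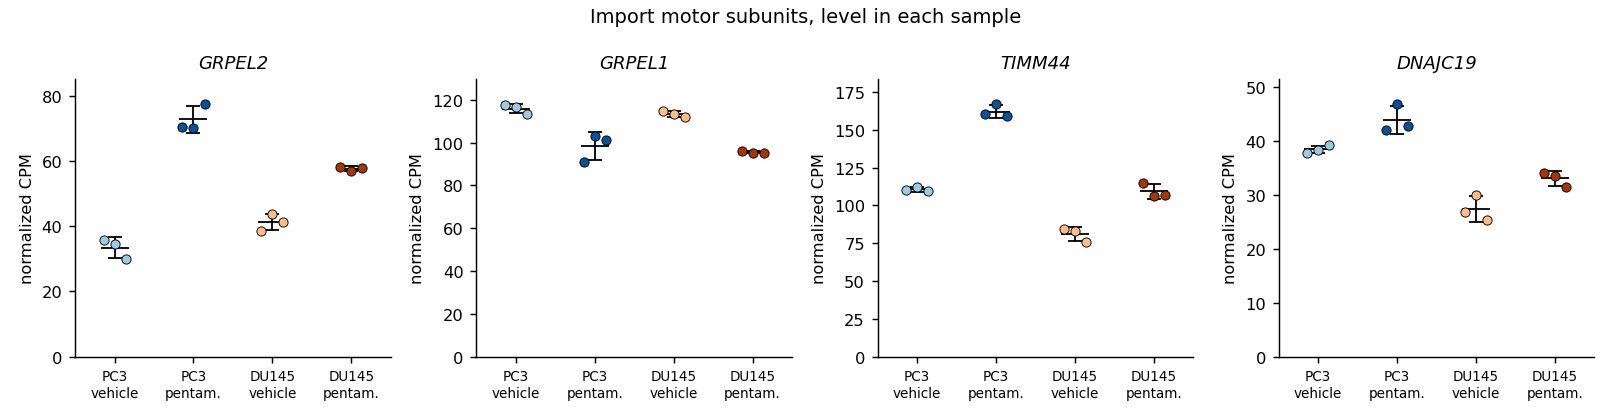
Normalized CPM (y axis, from 0) of GRPEL2, GRPEL1, TIMM44 and DNAJC19 in the 4 groups. Points are samples, and the horizontal mark and bar give the mean and SD of 3 samples. GRPEL2 and GRPEL1 moved in opposite directions, with no overlap between treated and vehicle samples of a line.

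Of the 6 members of the TIM23 channel, 3 fell and 0 rose in PC3, with log2 values above 0 for the 3 that were not called and a median of -0.079, against 21.7% of all genes lower. In DU145, 1 rose and 1 fell, against 17.2% of all genes higher and 16.8% lower. TIMM23 forms the channel with TIMM17A or TIMM17B, TIMM50 receives the presequence, and TIMM21 links the channel to the TOM complex and to the respiratory chain.

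TIMM21 (ENSG00000075336, chromosome 18, 74148511 to 74160530, plus strand) showed the largest fall of the 38 members in PC3. It went from 39.5, 44.5 and 44 CPM to 24.8, 29.3 and 26.4 CPM. In DU145 the vehicle samples were at 45.5, 48.5 and 54.1 CPM and the treated ones at 48.3, 47.8 and 46 CPM. The PC3 groups were far apart and those of DU145 overlapped. The log2 fold change was -0.66 in PC3 (SE 0.082, edgeR adjusted p = 4.9e-06) and -0.057 in DU145 (SE 0.0605, adjusted p = 0.51).

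TIMM17A and TIMM17B, alternative subunits of the channel, differed from each other. TIMM17A was at 64.5, 82.7 and 82.3 CPM in PC3 vehicle samples and 61.5, 66 and 60 CPM after pentamidine, so its lowest vehicle sample, the first, lay among the treated ones. In DU145 it went from 105, 110 and 105 CPM to 88.9, 79.6 and 86 CPM, with no overlap. It fell by 0.29 on the log2 scale in PC3 (SE 0.0852, edgeR adjusted p = 0.011; 0.07 without the second vehicle sample and 0.059 without the third pentamidine sample) and by 0.33 in DU145 (SE 0.0453, adjusted p = 5.9e-08). TIMM17B stood at 72.7, 68 and 71 CPM and then at 79.7, 72.5 and 72.9 CPM in PC3, which overlapped (log2 0.094, adjusted p = 0.23). In DU145 it rose from 57, 50.8 and 53.6 CPM to 68.2, 66.8 and 63.2 CPM (log2 0.30, SE 0.0541, adjusted p = 1.2e-05).

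TIMM23 stood at 102, 112 and 103 CPM with vehicle and at 86.8, 97.4 and 87.9 CPM with pentamidine in PC3, and fell there (log2 -0.22, SE 0.0625, edgeR adjusted p = 0.0098). The call was lost without the second vehicle sample (adjusted p = 0.053), the first pentamidine sample (0.067) or the third (0.053). In DU145 it was at 107, 110 and 113 CPM and then at 104, 101 and 102 CPM, also without overlap, but short of the threshold (log2 -0.099, adjusted p = 0.064). The near-identical gene TIMM23B, at 12.6 to 14.8 CPM, shares sequence with it, so reads may be split between the pair; its log2 fold changes were 0.13 and 0.014, neither called. TIMM50 was called in neither line. It was at 77.1, 88.2 and 97 CPM and then 93.3, 92.2 and 86.6 CPM in PC3, and at 131, 127 and 132 CPM and then 142, 137 and 133 CPM in DU145 (log2 0.059 and 0.085, adjusted p = 0.55 and 0.088).

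The group of the TOM complex and its receptors also held TOMM34, which is cytosolic and not a subunit of the complex. Of the 8 members, 3 rose (TOMM7, TOMM20 and TOMM34) and 3 fell in PC3, against 21.7% of all genes higher and 21.7% lower. In DU145, 1 rose, TOMM34, and 3 fell, against 17.2% of all genes higher and 16.8% lower. The channel protein fell, and so did the receptor for chaperone-bound carriers. TOMM40 (ENSG00000130204, chromosome 19, 44890569 to 44903689, plus strand), the barrel that forms the pore, was at 168, 140 and 149 CPM with vehicle and 120, 114 and 107 CPM with pentamidine in PC3. In DU145 cells TOMM40 was at 218, 228 and 212 CPM and then 205, 203 and 205 CPM. All treated samples lay below the vehicle samples, by a narrow margin in DU145, where the call was lost without the second vehicle sample (adjusted p = 0.18) or the second pentamidine sample (0.078), in the joint fit of 12 samples, and with scaling by library size alone (log2 -0.048, adjusted p = 0.31). The log2 fold change was -0.42 in PC3 (SE 0.0655, edgeR adjusted p = 6.7e-05) and -0.098 in DU145 (SE 0.0355, adjusted p = 0.027).

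TOMM40L (ENSG00000158882, chromosome 1, 161225939 to 161230744, plus strand), a relative of TOMM40, fell in both lines. It went from 16.8, 18.3 and 21.4 CPM to 15.4, 14.4 and 13.5 CPM in PC3 (log2 -0.38, SE 0.111, edgeR adjusted p = 0.011). The DU145 samples went from 30.6, 27.9 and 29.2 CPM to 22.2, 20.4 and 24.4 CPM (log2 -0.38, SE 0.079, adjusted p = 0.0001). The PC3 call was lost without the third vehicle sample (adjusted p = 0.06) or the third pentamidine sample (0.054). Its exons share 20.1% of their bases with NR1I3 on the opposite strand, and whether counting used strand is not given in the sources used here.

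TOMM70, the receptor that takes preproteins from HSP70 and HSP90, fell from 99.2, 96.6 and 90.4 CPM to 82.9, 75.9 and 85.9 CPM in PC3 and from 116, 119 and 114 CPM to 100, 108 and 102 CPM in DU145 (log2 -0.22 and -0.17, edgeR adjusted p = 0.0071 and 0.0013). TOMM20, the presequence receptor, rose from 116, 120 and 114 CPM to 133, 132 and 126 CPM in PC3 (log2 0.16, adjusted p = 0.017). In DU145 it was at 161, 170 and 158 CPM and then at 163, 166 and 160 CPM, groups that overlapped (log2 0.0061, adjusted p = 0.92). The receptors TOMM70 and TOMM20 thus moved in opposite directions in PC3. Each call in PC3 was narrow, and was lost without the second pentamidine sample (adjusted p = 0.055 for TOMM70 and 0.067 for TOMM20) and, for TOMM20, without the first one (0.086). TOMM34, a cytosolic co-chaperone of import, rose by 0.23 in PC3 and 0.13 in DU145 on the log2 scale (adjusted p = 0.0024 and 0.0029).

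TOMM22, the central receptor, was called in neither line. It stood at 126, 155 and 152 CPM and then at 140, 142 and 128 CPM in PC3, and at 157, 159 and 151 CPM and then at 149, 151 and 151 CPM in DU145 (log2 -0.073 and -0.042, edgeR adjusted p = 0.45 and 0.42). Without the first PC3 vehicle sample, the lowest of its group, TOMM22 was lower in PC3 (log2 -0.17, adjusted p = 0.014).

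The small TOM subunits TOMM7 and TOMM5 varied widely among the PC3 vehicle samples. TOMM7 was at 33.9, 46.6 and 60 CPM in the PC3 vehicle samples and at 55.6, 64.3 and 59 CPM after pentamidine, which overlapped, and was called higher (log2 0.36, SE 0.133, edgeR adjusted p = 0.039). Without the first vehicle sample it was not (log2 0.17, adjusted p = 0.076), and the call was lost under 7 of 15 other settings in all. Without the third vehicle sample the log2 fold change was 0.57. In DU145 it was at 72.3, 76.4 and 73.4 CPM and then at 86.4, 75.6 and 74.5 CPM (log2 0.094, adjusted p = 0.15). TOMM5 had 3.31 to 6.67 CPM in PC3, as 3.79, 6.67 and 5.38 CPM with vehicle and 4.38, 3.98 and 3.31 CPM with pentamidine. In DU145 it had 8.57, 11.6 and 10.4 CPM and then 8.21, 8.28 and 9.03 CPM. It was called in neither line (log2 -0.44 and -0.26, adjusted p = 0.1 and 0.12), but was lower in PC3 without the first vehicle sample (log2 -0.64, adjusted p = 0.0056). The exons of TOMM5 share 14.3% of their bases with AL138752.2 and 9.33% with AL513165.2 on the same strand, so its count is uncertain.

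Among the 6 small TIM chaperones, 2 rose and 1 fell in PC3, and 0 rose and 2 fell in DU145. Over all genes, 21.7% were higher and 21.7% lower in PC3, and 17.2% and 16.8% in DU145. TIMM8A, whose loss causes a deafness and dystonia syndrome, fell in both lines. It went from 29.7, 28.7 and 28.9 CPM to 21, 23.1 and 24.5 CPM in PC3 (log2 -0.34, SE 0.0819, edgeR adjusted p = 0.0025) and from 20.2, 19.4 and 21.7 CPM to 16.4, 15.5 and 16.9 CPM in DU145 (log2 -0.32, SE 0.0907, adjusted p = 0.0039). Its usual partner TIMM13 fell in DU145 (log2 -0.18, adjusted p = 0.0026), with an adjusted p of 0.059 without the third pentamidine sample. In PC3 the log2 value was -0.10 (adjusted p = 0.42), and -0.19 without the first vehicle sample (adjusted p = 0.022).

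TIMM9 and TIMM10 form the main carrier chaperone together. TIMM9 was at 11.4, 17 and 14.4 CPM and then at 18.1, 16.8 and 18.7 CPM in PC3, with overlap, and was called at an edgeR adjusted p = 0.048 (log2 0.32, SE 0.127). That call was lost without the first vehicle sample (log2 0.18, adjusted p = 0.2) and under 8 of 15 other settings in all. TIMM9 in DU145 was at 21.2, 19.9 and 23.9 CPM and then at 23.9, 23.3 and 23.8 CPM (log2 0.13, adjusted p = 0.22). TIMM10 stood at 34.7, 40.1 and 43.3 CPM and then at 35.2, 39.2 and 31.5 CPM in PC3, and at 61.9, 60.8 and 56 CPM and then at 62, 64.7 and 56.8 CPM in DU145. It was called in neither line (log2 -0.15 and 0.044), but was lower in PC3 without the first vehicle sample (log2 -0.24, adjusted p = 0.014). TIMM10B rose in PC3 (log2 0.25, adjusted p = 0.0086, and 0.057 without the second vehicle sample), with a log2 value of 0.064 in DU145. It shares 13.5% of its exon bases with AC084337.2 on the same strand. TIMM8B, which shares 30.1% of its exon bases with NKAPD1 on the opposite strand, was called in neither (log2 -0.021 and -0.15).

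The MIA relay had no call in PC3. CHCHD4, the oxidoreductase of the relay, was at 34.9, 35.5 and 39.9 CPM and then at 34.5, 36.9 and 34.7 CPM in PC3, and at 44.3, 45.6 and 43 CPM and then at 42.9, 41.9 and 42.6 CPM in DU145 (log2 -0.05 and -0.056, edgeR adjusted p = 0.63 and 0.51). GFER, which reoxidises CHCHD4, was at 28.9, 16.2 and 18.8 CPM with vehicle and 20.6, 22.8 and 20.7 CPM with pentamidine in PC3 (log2 0.012, adjusted p = 0.95). The first vehicle sample lay above every treated one and the others below, and without it GFER was higher (log2 0.29, adjusted p = 0.021). In DU145 GFER rose from 12.1, 16 and 13.6 CPM to 16.1, 17.4 and 16.7 CPM (log2 0.27, SE 0.103, adjusted p = 0.037), a call lost under 8 of 15 other settings, such as without the first DU145 vehicle sample (log2 0.18, adjusted p = 0.23). A noncoding RNA on the opposite strand, AC005606.2, shares 25.9% of its exon bases.

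In the TIM22 route, TIMM22, the carrier insertase, was at 70, 67.1 and 67.8 CPM and then at 63.9, 62.8 and 58.5 CPM in PC3 (log2 -0.14, edgeR adjusted p = 0.069) and fell in DU145 from 66, 66.9 and 62.2 CPM to 60.3, 49.7 and 60.9 CPM (log2 -0.19, SE 0.0581, adjusted p = 0.0092). The groups did not overlap in either line. Without the second pentamidine sample, at 49.7 CPM, the DU145 call of TIMM22 was lost (log2 -0.10, adjusted p = 0.19), as it was with scaling by library size alone (log2 -0.14, adjusted p = 0.061). TIMM29, a metazoan subunit of TIM22 (ENSG00000142444, chromosome 19, 10928733 to 10933535, plus strand), fell in PC3 from 19.2, 18.3 and 19.7 CPM to 14.1, 15.7 and 14.5 CPM (log2 -0.37, SE 0.096, adjusted p = 0.0052). In DU145 it stood at 12.7, 11.8 and 10.9 CPM and then at 13.4, 14.2 and 11.7 CPM, with overlap (log2 0.16, SE 0.111, adjusted p = 0.27).

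In the outer membrane sorting complex, 1 of 4 members was called, higher in both lines, against 9.94% of all genes higher in both. MTX2, a metaxin, rose in both lines, from 37.8, 40.2 and 42.4 CPM to 49.4, 51.6 and 45.7 CPM in PC3 (log2 0.29, SE 0.0734, edgeR adjusted p = 0.0039) and from 40.1, 43 and 38 CPM to 52.7, 44.8 and 46.7 CPM in DU145 (log2 0.25, SE 0.0638, adjusted p = 0.0013). SAMM50, the barrel that inserts other barrels, was at 41.6, 48 and 51.2 CPM and then at 45.9, 45 and 42.9 CPM in PC3, and at 37.7, 43.5 and 47.8 CPM and then at 42.2, 41.9 and 41.2 CPM in DU145 (log2 -0.069 and -0.04, adjusted p = 0.52 and 0.69). Its vehicle samples spread more widely than the treated ones. MTX1 and MTX3 had log2 values of -0.12 and 0.15 in PC3 and -0.16 and 0.024 in DU145, none called, though MTX3 was higher in PC3 without the first vehicle sample (log2 0.18, adjusted p = 0.026). MTX1 shares 17.3% of its exon bases with an antisense gene and has a related pseudogene, so its count is uncertain.

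IMMT, the scaffold of the MICOS complex that holds the cristae and touches TOM and SAM, had log2 fold changes close to 0. It was at 189, 191 and 197 CPM and then at 185, 200 and 185 CPM in PC3, and at 179, 196 and 185 CPM and then at 192, 186 and 194 CPM in DU145. The values were -0.014 (SE 0.0517) and 0.036 (SE 0.0374), with edgeR adjusted p = 0.85 and 0.5.

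Of the peptidases, PMPCA, the presequence-binding subunit of the matrix processing peptidase, fell in both lines. It went from 91.1, 89.4 and 97.4 CPM to 73.3, 76.7 and 73.9 CPM in PC3 (log2 -0.31, SE 0.0579, edgeR adjusted p = 0.00039) and from 106, 105 and 105 CPM to 98.7, 91.2 and 94 CPM in DU145 (log2 -0.15, SE 0.0432, adjusted p = 0.0053). The catalytic subunit PMPCB was at 58.7, 58.2 and 62.6 CPM and then at 60.9, 67.7 and 66 CPM in PC3, and at 67.3, 65 and 62 CPM and then at 69.2, 65.9 and 68.5 CPM in DU145 (log2 0.12 and 0.073, adjusted p = 0.14 and 0.28). With scaling by library size alone, the DU145 call of PMPCA was lost (log2 -0.10, adjusted p = 0.068). Every treated sample of PMPCA lay below the vehicle samples of its line, while the samples of PMPCB overlapped.

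IMMP1L and IMMP2L, subunits of the inner membrane peptidase, had low counts, 46 to 204 per sample. IMMP2L was at 4.88, 8.15 and 6.19 CPM and then at 8.63, 9.24 and 10.4 CPM in PC3, where it rose (log2 0.56, SE 0.17, edgeR adjusted p = 0.014), a call lost without the third pentamidine sample (log2 0.48, adjusted p = 0.068). IMMP1L fell there from 13.8, 12.8 and 11.6 CPM to 9.51, 8.53 and 11.4 CPM (log2 -0.37, SE 0.128, adjusted p = 0.027), and without the first vehicle sample had log2 -0.31 (adjusted p = 0.056), 1 of 6 settings in which that call was lost. In DU145, IMMP2L stood at 3.58, 3.99 and 3.71 CPM and then at 4.14, 4.21 and 3.19 CPM, and IMMP1L at 7.45, 7 and 7.77 CPM and then at 7.07, 5.97 and 7.22 CPM. Neither was called in DU145 (log2 0.037 and -0.13).

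Related members can be set side by side as ratios of CPM per kilobase of exon. These ratios come from values already given and have no test. The ratio of GRPEL2 to GRPEL1 was 0.273 ± 0.0207 (SD, n = 3) in PC3 vehicle samples and 0.70 ± 0.0492 after pentamidine, and 0.344 ± 0.0235 and 0.571 ± 0.00641 in DU145. GRPEL1 stayed the more abundant of the pair in every sample, but the highest vehicle ratio, 0.364, lay below the lowest treated one, 0.563. For TIMM17B to TIMM17A the ratio was 1.29 ± 0.227 and then 1.65 ± 0.135 in PC3, where the first vehicle sample, at 1.54, overlapped the treated ones. In DU145 it went from 0.693 ± 0.0558 to 1.07 ± 0.0729, with treated values between 1.01 and 1.15. Per kilobase, TIMM17A was thus the more abundant with vehicle and TIMM17B in all treated samples. In CPM, TIMM17A stayed above TIMM17B in every DU145 sample, at 79.6 to 88.9 CPM against 63.2 to 68.2 CPM in treated ones. Which of the pair was more abundant after treatment therefore rests on the exon lengths used.

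MTX1 to MTX2 was 0.413 ± 0.0271 and then 0.312 ± 0.0204 in PC3, and 0.517 ± 0.0493 and then 0.387 ± 0.00637 in DU145, without overlap in either line. IMMP2L to IMMP1L was 0.581 ± 0.164 and then 1.11 ± 0.115 in PC3. In DU145 it was 0.582 ± 0.0601 and then 0.66 ± 0.15, which overlapped. TOMM40L stayed at 0.137 and 0.14 of TOMM40 in PC3 and went from 0.147 to 0.12 in DU145. TIMM10B to TIMM10 was 0.261 and 0.343 in PC3 and 0.138 and 0.14 in DU145, and TIMM8B to TIMM8A was 4.21 and 5.29 in PC3 and 5.39 and 6.07 in DU145. MTX3 to MTX2 was 0.349 and 0.317 in PC3 and 0.266 and 0.228 in DU145. For TIMM23B to TIMM23, samples of PC3 lay at 0.047 to 0.0495 with vehicle and 0.0575 to 0.0675 with pentamidine, without overlap, and those of DU145 at 0.0484 to 0.0493 and 0.0482 to 0.0572, with overlap.

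**Figure D3:**
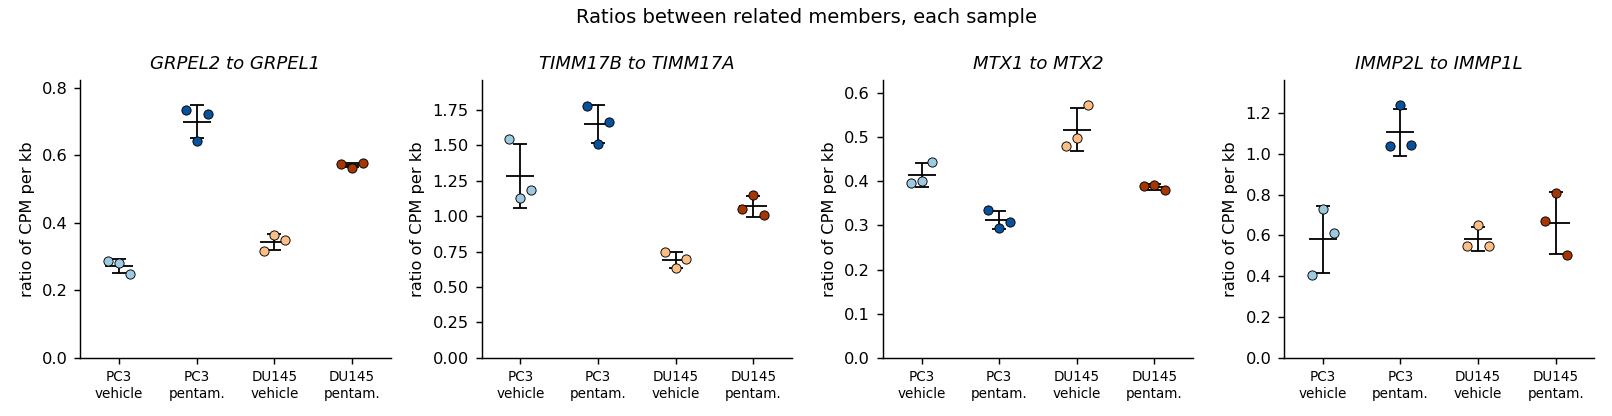
Ratios of CPM per kilobase (y axis, from 0) between related members in each of the 12 samples, with the mean and SD of 3 samples per group. The GRPEL2 to GRPEL1 ratio rose from 0.273 to 0.70 in PC3 and from 0.344 to 0.571 in DU145.

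Whether a member responded differently in the lines was tested as the interaction of treatment and line in all 12 samples. Of the 38 members, 1 had a higher and 3 a lower log2 fold change in PC3 than in DU145, against 10.2% and 10.3% of 15226 genes, so both shares, 2.63% and 7.89%, were below those of all genes. The log2 difference was 0.63 for GRPEL2 (SE 0.0955, edgeR adjusted p = 1.3e-05), which rose more in PC3. It was -0.61 for TIMM21 (SE 0.105, adjusted p = 8.3e-05), -0.53 for TIMM29 (SE 0.142, adjusted p = 0.0079) and -0.32 for TOMM40 (SE 0.0772, adjusted p = 0.0033). TIMM21 and TIMM29 fell in PC3 and were not called in DU145, while TOMM40 fell in PC3 and, less firmly, in DU145. TIMM44, at 0.12 (SE 0.0703, adjusted p = 0.26), and the other 33 members were not called.

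**Figure D4:**
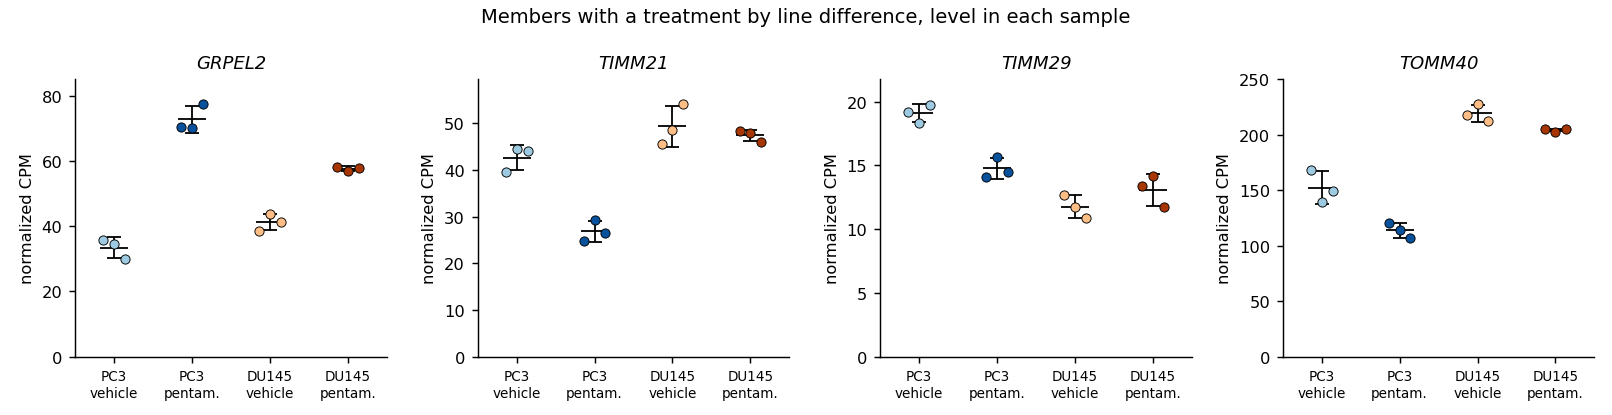
Normalized CPM (y axis, from 0) of the 4 members with an interaction of treatment and line, by sample, with the mean and SD of 3 samples. TIMM21 and TIMM29 are lower with pentamidine in PC3, with log2 fold changes of -0.66 and -0.37, and overlap with vehicle in DU145.

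The lines also differed without the drug. Of the 38 members, 10 were higher and 15 lower in PC3 vehicle than in DU145 vehicle samples, against 33.2% and 33.2% of genes. The TOM group, TOMM34 included, lay toward DU145, with 6 of 8 members lower in PC3 and 0 higher. Its median log2 difference was -0.50, beside 0.011 over all genes. Among members lower in PC3, TOMM5 differed most (log2 -0.94, SE 0.165, edgeR adjusted p = 1.4e-05), followed by TOMM7 (-0.67, SE 0.108, adjusted p = 5.3e-06), TOMM40L (-0.64, SE 0.092, adjusted p = 8.5e-07) and TIMM10 (-0.60, SE 0.0786, adjusted p = 1.8e-07). The count of TOMM5 is uncertain, since its exons overlap other genes on the same strand. TIMM9, TIMM50, TOMM40, TOMM20 and TIMM17A were lower too, at -0.60, -0.57, -0.53, -0.48 and -0.48. Higher in PC3 were IMMP1L (0.78, SE 0.129, adjusted p = 6.6e-06), IMMP2L (0.77, SE 0.182, adjusted p = 0.00057), TIMM29 (0.70, SE 0.0996, adjusted p = 6.9e-07) and GFER (0.61, SE 0.143, adjusted p = 0.00051), then TIMM8A, DNAJC19, TIMM44 and TIMM17B at 0.51, 0.49, 0.45 and 0.39. TIMM21, at -0.21, lost its call without the first PC3 vehicle sample (-0.16, adjusted p = 0.057) or without the third DU145 vehicle sample (-0.14, adjusted p = 0.12). The other named differences were called under every setting tried, and without the first PC3 vehicle sample that of GFER was 0.33 (adjusted p = 0.0093).

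Per kilobase of exon, TIMM23 was the most abundant member in PC3 vehicle samples, at 86.5 ± 4.4 CPM per kilobase (SD, n = 3), with TOMM34 next at 81.7 ± 4.9, a gap within their spread. In DU145 vehicle samples TIMM23 stood at 90.1 ± 2.5 and TOMM34 at 84.5 ± 0.04. PAM16 was the lowest in PC3, at 1.3 ± 0.086, and IMMP2L in DU145, at 1.1 ± 0.062. The rank of TIMM23 rests on the exon lengths used. In CPM, it had a mean of 105.7 in PC3 vehicle samples, below IMMT at 192.5. Reads of TIMM23 may also be split with TIMM23B.

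**Figure D5:**
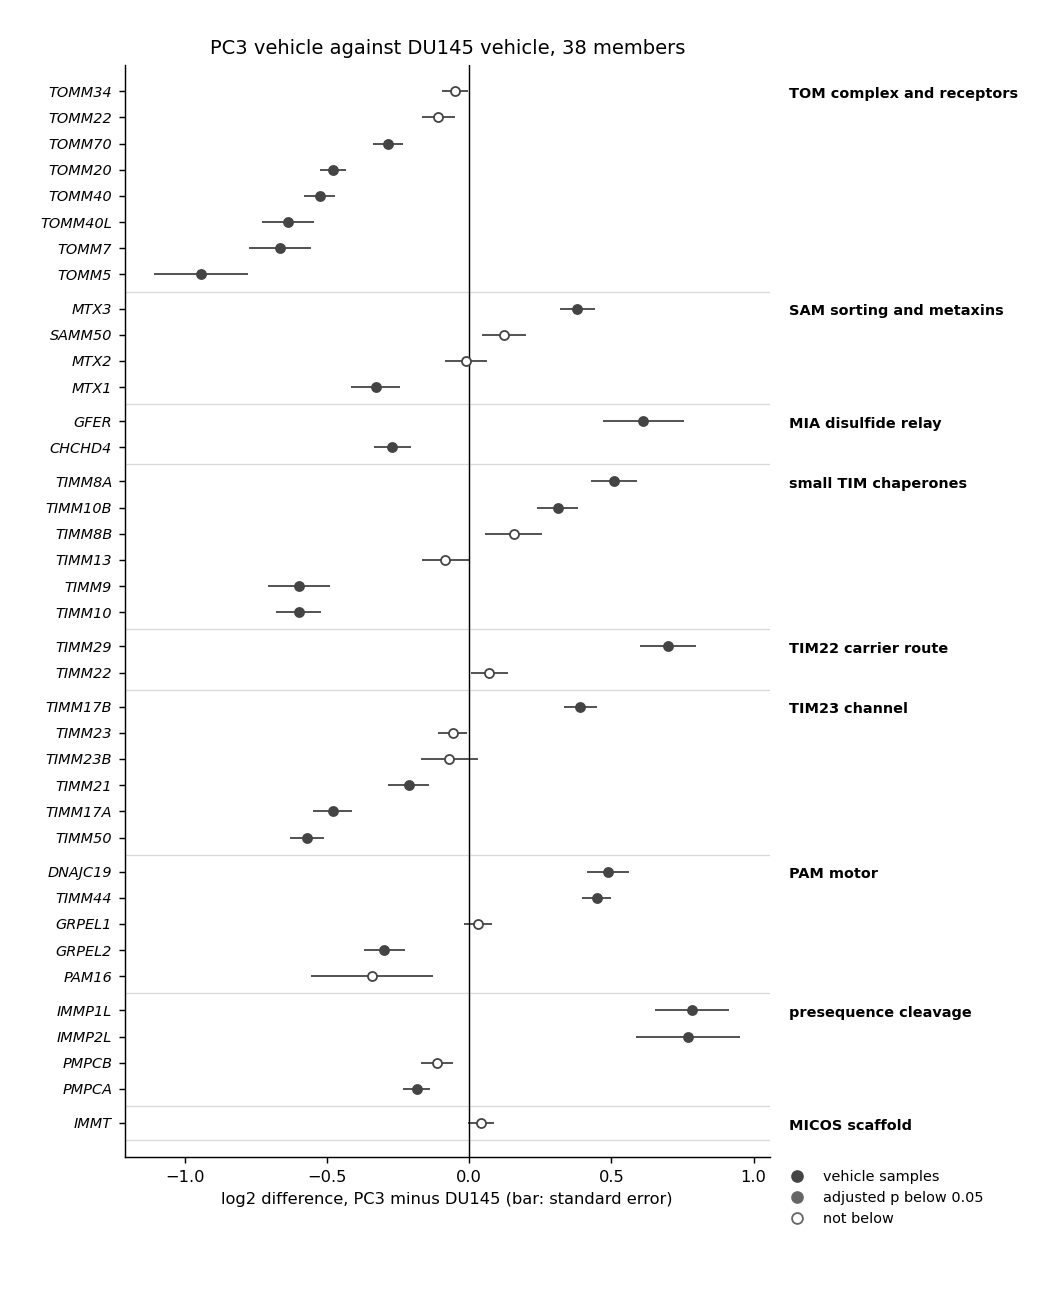
Log2 difference of each member between vehicle-treated PC3 and DU145 cells (PC3 minus DU145), grouped by role, with bars for the standard error. Filled points have an adjusted p below 0.05. All 8 members of the TOM group, TOMM34 included, lie to the left of 0, down to -0.94 for TOMM5.

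Genes that work beside the machinery were described with the same tests. Their counts stand beside 21.7% of all genes higher and 21.7% lower in PC3, and 17.2% and 16.8% in DU145. Among 16 import partners, 3 were higher and 2 lower in PC3, and 5 higher and 1 lower in DU145. HSPA9, the mitochondrial HSP70 that the GRPEL proteins and TIMM44 serve, rose in PC3 (log2 0.58, SE 0.0466, edgeR adjusted p = 2.5e-08) and in DU145 (log2 0.18, SE 0.0287, adjusted p = 2.1e-06), and rose more in PC3 (difference 0.41, SE 0.051, adjusted p = 8e-07). In DU145 the largest change of the list was BCS1L, an AAA protein of the inner membrane (log2 0.19, adjusted p = 0.009). Of 7 other MICOS genes, CHCHD6 moved most in both lines (log2 0.46 and 0.26, adjusted p = 0.015 and 0.012), and 2 were higher and 0 lower in PC3 and 1 higher and 1 lower in DU145.

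Of the 12 cytosolic chaperones that deliver preproteins, 6 were lower and 2 higher in PC3, and 8 lower and 1 higher in DU145, against 21.7% and 16.8% of all genes lower. Their median log2 fold changes were -0.16 and -0.20. HSP90AA1 fell most in PC3 (log2 -0.73, SE 0.0437, edgeR adjusted p = 5.2e-10) and HSPA8, the constitutive cytosolic HSP70, most in DU145 (log2 -0.43, SE 0.0266, adjusted p = 1.9e-19). Of 11 matrix chaperones and proteases, 2 were higher and 4 lower in PC3, led by the protease LONP1 (log2 0.74, SE 0.0531, adjusted p = 6.2e-09), and 1 higher and 2 lower in DU145, led by HSPD1, the matrix chaperonin (log2 -0.24, SE 0.0284, adjusted p = 1.7e-09). Mitochondrial ribosomal protein genes, 5 of 77 higher and 18 lower in PC3 and 9 of 78 higher and 18 lower in DU145, had medians of -0.077 and -0.013. Among those called, MRPS10 had the largest change in PC3 (0.47) and MRPL14 in DU145 (-0.39).

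Beside these, the 13 mitochondria-encoded mRNAs were all lower in both lines, with medians of -4.12 in PC3 and -4.84 in DU145. Over all genes, 21.7% were lower in PC3 and 16.8% in DU145. The 10 genes of the ATF4 response list were all higher, with medians of 2.57 and 1.86, against 21.7% and 17.2% of all genes. Both lists were chosen with earlier results of these data known, so their counts are no independent result. The largest changes in the lists were MT-CO2 in both lines (-5.24 and -5.96), DDIT4 in PC3 (5.30) and CHAC1 in DU145 (2.89). No member of the import machinery changed by as much as the list medians of either group.

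The promoter windows of RefSeq, 250 bases before to 50 bases after each gene's start, covered 35 of the 38 members and 27305 genes in all. Motifs of 8 bases were searched on both strands, and a gene counted once if any of its windows held a match. CCGGAAGT, the ETS motif, was found in 8 members (22.9%, against 4.95% of all genes): GRPEL2, with a pair of copies, MTX2, MTX3, TIMM10, TIMM10B, TIMM29, TOMM20 and TOMM70. GCGCATGC, the NRF1 motif, was found in 5 (14.3%, against 3.68%): CHCHD4, PAM16, TIMM9, TIMM10B and TOMM7. This motif can overlap its own reverse complement. AAGATGGC, the YY1 motif, was found in 5 (14.3%, against 3.52%): IMMP1L, MTX3, PMPCA, TIMM50 and TOMM40L. TGATGNAA, a composite motif of ATF4 with C/EBP, was found in 2 (5.71%, against 4.46%), PMPCB and TIMM22. The windows of 17 members held none of the 4 motifs. Of the members called in at least 1 line, the 12 with a higher mean log2 fold change over the lines and a window had the ETS motif in 4, NRF1 in 3, YY1 in 0 and ATF4 in 0, and the 12 with a lower mean had them in 2, 0, 3 and 1. A match is a run of letters, not a bound site. The 27305 genes include genes not expressed here and were not matched to the members by expression or base content. The higher shares are therefore not shown to be particular to the import machinery.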

How the data were processed

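Transcript counts of PC3 and DU145 cells were compared, 3 samples in each of 4 groups assigned by their labels, with none left out. According to the methods of the study, Oligo(dT)-selected RNA was sequenced and aligned with HISAT2 (2.1.0 in the submitters' processing notes, with GRCh38), and groups were tested with DESeq. The counter and the use of strand are not given in the sources used here. The deposited counts are whole reads per gene, without normalization. A table named FPKM and the authors' fold changes and p-values per line were not used. From 33595 entries with an Ensembl identifier, entries with the same name and the same counts were merged to 32077 genes, and 44 broken lines could not be read.

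Counts were tested with edgeR 4.0.16 (R 4.3.3): TMM, filterByExpr at a minimum count of 10, quasi-likelihood test, Benjamini-Hochberg adjustment over all genes tested. Each line was tested in its own 6 samples; the interaction and the vehicle comparison used all 12 with a mean per group. On simulated data with log2 changes of 0.4, 79.5% of changed genes were recovered in PC3, 90.7% in DU145 and 61.6% for the interaction. The changed genes were drawn only from those with higher mean counts, so these rates do not cover members with low counts, such as PAM16. Levels per kilobase used merged GENCODE 29 exons. One marker gene fixed for the lines is not reported here. The members and lists were chosen with earlier results of these data known. Values in every sample were given for the 6 members per direction with the largest mean change over both lines among those called, up to 6 with an interaction, 4 per direction between vehicle groups, and fixed core subunits; of wider lists, the most changed gene per line. Alternatives were RLE, library size alone, no mitochondria-encoded genes, 2 other filters, DESeq2 1.42.0, a replicate block, stricter p, fold thresholds, 1 joint fit and leaving out each sample.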

Additional observations from a re-analysis of the deposited data

Results flagged for a closer look

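The response to pentamidine differed between the lines for 4 members, by the interaction test of edgeR over all 12 samples. The log2 fold change in PC3 minus that in DU145 was 0.634 for GRPEL2, -0.608 for TIMM21, -0.529 for TIMM29 and -0.319 for TOMM40, with adjusted p = 1.3e-05, 8.3e-05, 0.0079 and 0.0033. All 4 were called under each of the 20 alternatives, with values of 0.57 to 0.69, -0.68 to -0.54, -0.60 to -0.47 and -0.39 to -0.24. All 4 also differed between the vehicle groups. The log2 difference, PC3 minus DU145, was -0.30 for GRPEL2, -0.21 for TIMM21, 0.70 for TIMM29 and -0.53 for TOMM40. That of TIMM21 lost its call under some settings. The treated PC3 samples of TIMM29, at 14.1 to 15.7 CPM, lay close to the 10.9 to 14.2 CPM of all DU145 samples. Without the first PC3 vehicle sample, the interaction of GRPEL2 was 0.69 and that of TIMM21 was -0.66.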

How the results depend on the processing

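Of 66 calls on members in the 4 comparisons, 49 held under every alternative other than the fold thresholds and 0 changed direction: 10 of 21 in PC3, 11 of 16 in DU145, 4 of 4 for the interaction and 24 of 25 between vehicle groups. Members that were not called changed sign in 87 of 1525 recomputed values, 0 of them called, and 24 further calls appeared under some setting. At an adjusted p below 0.01, 5 members were higher in PC3. Leaving out 1 sample at a time gave 6 to 9 higher members in PC3 and a median log2 fold change of -0.1105 (without the first vehicle sample, with 9 higher and 14 lower) to 0.00013 (without the third vehicle sample); 6 higher came without the second pentamidine sample. In DU145 the median was -0.0438 (without the second pentamidine sample) to 0.00725 (without the third vehicle sample), and 6 members were higher and 13 lower without the first vehicle sample. A log2 fold above 1 left 1 higher and 0 lower in PC3 and 0 and 0 in DU145, and above 0.3 left 5 and 7, and 3 and 3. Scaling by library size alone moved the DU145 split to 9 higher and 6 lower (3278 and 1646 over all genes) and the median to 0.042; the cause was not tested. DESeq2 called 7 higher and 10 lower in PC3 and 6 and 9 in DU145. With the replicate block, 9 and 11 members were called in PC3, 7 and 9 in DU145, 4 for the interaction and 10 and 15 between vehicle groups. The replicate numbers did not pair the samples: same-numbered samples correlated at -0.156 to 0.0448. DNAJC19 lost its PC3 call under the block. Counts as low as 39 per sample for PAM16, 49 for TOMM5 and 46 for IMMP2L limit their precision.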
